A study of Mus musculus with 48 samples.

Results

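MLO-Y4 cells, a wild-type mouse cell line with features of osteocytes (strain label C57BL/6J), were compared after medium carried over from vehicle-treated cells and after vehicle itself. The comparison covered 6 of the 48 samples of the series, 3 libraries in each group, and 11940 of the 55335 genes in the table, those with a mean of at least 1 FPKM over the 6 libraries (fragments per kilobase of transcript, scaled to each library's depth). The gene just outside that limit was Serpinb6b at 0.9998 FPKM, and the gene just inside was Comtd1 at 1.0001 FPKM. Vehicle cells received DMSO, the solvent of oligomycin A, in fresh medium for 1 h. Recipient cells were cultured normally and then received the supernatant of vehicle-treated cells for 2 h. Both groups grew in α-MEM with 10% fetal bovine serum and antibiotics. In the same fit stood cells given the ATP synthase inhibitor oligomycin A at 50 µM for 1 h, and cells given the supernatant of such cells for 2 h, 3 libraries each.

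The groups differ in exposure time, in fresh against used medium and in direct against carried-over DMSO, and the parts of these in any difference cannot be told apart. None of the 4 groups was of cells left in their medium. The treatment label of the vehicle and the vehicle supernatant samples names oligomycin A with DMSO, while titles and protocol call them vehicle. Ddit3, which encodes the stress transcription factor CHOP, had 49.4, 50.2 and 47.8 scaled FPKM in the vehicle libraries and 54.6, 35.0 and 41.1 in the recipients, against 431, 417 and 425 in oligomycin A cells. No label states whether replicates came from different cultures, so the p-values reflect the spread among these libraries and that spread may be technical.

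Immediate early genes are switched on within minutes by serum, growth factors, medium changes or stress, from factors already present in the cell. Many encode transcription factors of the AP-1, EGR and NR4A families, and their transcripts are short-lived. The integrated stress response is a slower programme in which ATF4 raises genes of amino acid synthesis, amino acid transport and tRNA charging. Osteocytes, the cells embedded in bone matrix, respond to fluid flow, nucleotides and hormones with immediate early transcripts.

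The 6 libraries held about 15.3 to 18.0 M fragments, estimated from steps among low values; the estimate is rough, since 47.2% to 48.8% of these came out whole (tolerance 0.1 fragment). Genes resembling rRNA together with 7S RNA took 28.4% of the summed FPKM of vehicle replicate 2, and 0.479% to 0.524% of that of the other 5. Libraries were therefore scaled by the median of gene ratios before testing. Vehicle supernatant replicate 1 was the highest of the 3 recipient libraries for 57.6% of the genes called higher and the lowest for 47.1% of those called lower, against 37.5% and 36.3% of all genes. Where leaving out a single library moved a list count of at least 3 by more than 1.5 times, that library is named below, and smaller list counts given below moved by at most 1 gene. Osteocyte markers summed to 407 to 425 scaled FPKM in vehicle cells and 479 to 513 in recipients. Of these 13 markers, 6 were under 1 FPKM in every library: Dmp1, Mepe, Fgf23, Bglap, Sost and Ptprz1. Sost and Ptprz1 were listed at 0. Pdpn alone had 192 to 204 scaled FPKM in vehicle cells and 257 to 270 in recipients. Other lists had low sums in every library: myeloid markers 15.4 to 20.5 with Itgam and Tyrobp at 0, adipocyte markers 4.22 to 4.89 with Adipoq, Plin1, Cfd, Lep and Pparg at 0, chondrocyte markers 30.3 to 39.0 with Acan and Matn1 at 0, and endothelial markers 0.0176 to 0.109 with Kdr at 0. Osteoblast and bone matrix markers summed to 6998 to 7486 in vehicle cells and 8416 to 8629 in recipients, and fibroblast markers to 1180 to 1296 and 1117 to 1334. The higher bone matrix sum came from Spp1. Of the 5 such markers tested, 1 had a positive and 4 a negative change (median −0.16). The other 6 of the 11 were under 1 FPKM in every library.

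The recipients differed from vehicle cells in many genes, mostly by small amounts. In limma with Benjamini-Hochberg adjustment at 0.05, 2197 genes were called (18.4% of those tested), 1087 higher (9.1%) and 1110 lower (9.3%) in recipients. The median change of the called genes was 0.31 on the log2(scaled FPKM + 1) scale in each direction, a fold of 1.24. A change of at least 1 on that scale was reached by 16 of the higher and 36 of the lower genes. Values of recipients and vehicle cells were fully separate for 1083 of the 1087 higher and 1103 of the 1110 lower genes, where 19.5% and 19.9% of all tested genes were separate in these directions. The calls rest on the same values, so this separation is a description and no further support for them. Protein-coding genes made up 998 of the higher and 1005 of the lower calls. Their median gene length was 22.5 kb and 21.9 kb, against 23.9 kb for all protein-coding genes tested. With the FPKM as deposited the split was 1123 higher and 610 lower, and rescaled to one total it was 484 and 102, with the median of all genes moved to 0.14. Without vehicle replicate 2 it was 643 and 686, without vehicle replicate 3 it was 658 and 708, and without vehicle supernatant replicate 1 it was 700 and 752.

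**Figure D1:**
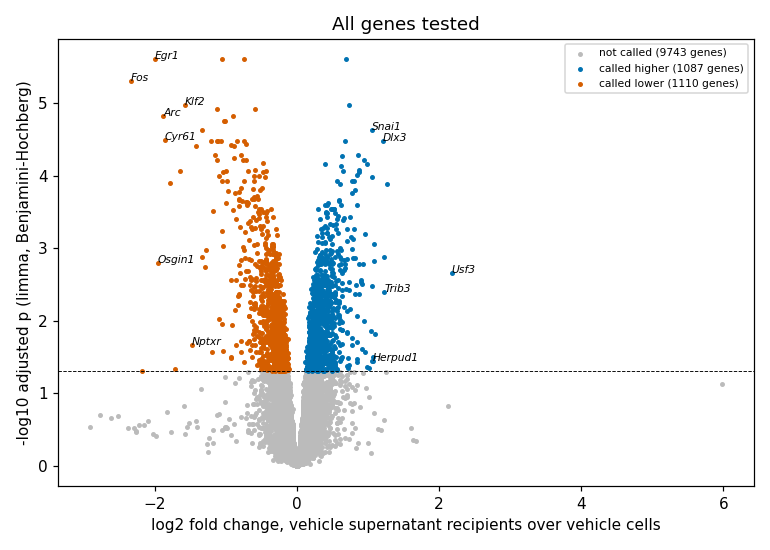
Log2 fold change (x axis) against −log10 of the limma adjusted p (y axis) for the genes tested, 1 point per gene, with the dashed line at an adjusted p of 0.05. Orange points are genes called lower (1110) and blue points genes called higher (1087), and the named early genes Fos, Egr1, Arc, Klf2 and Cyr61 lie at the upper left.

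Promoter windows were read for the genes the results turn on, since 2 groups of them are known targets of defined factors. RefSeq windows (GRCm38.p6, 250 bases before to 50 after the gene start) matched 8112 of the tested symbols. The C/EBP-ATF element, bound by ATF4 with C/EBP partners, was searched as TGATGNAAN on both strands. It lay in the window of 6 of the 15 stress response and tRNA synthetase genes called higher that had a window (40%): Aars, Asns, Gars, Slc7a11, Tars and Trib3. It lay in 1.98% of all tested windows, 3.21% of windows of called higher genes and 1.23% of those of called lower genes. The members were chosen by their calls, so these shares are a description, and a match is not a binding site. The stricter TTGCATCA, a form of the same element, lay in 3 of the 15 (20%), against 0.555% of all windows. In Trib3 the match lay after the start, from base 14. The 5 genes with a match before the start are shown with the match in capitals, 5′ to 3′ on the gene's strand.
Aars, alanine tRNA ligase, chr8:111033689-111033777, plus strand: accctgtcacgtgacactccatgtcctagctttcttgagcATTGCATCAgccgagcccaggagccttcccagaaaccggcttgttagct
Asns, asparagine synthetase, chr6:7693210-7693272, minus strand: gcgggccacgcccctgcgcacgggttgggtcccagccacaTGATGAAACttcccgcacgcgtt
Gars, glycine tRNA ligase, chr6:55037930-55038000, plus strand: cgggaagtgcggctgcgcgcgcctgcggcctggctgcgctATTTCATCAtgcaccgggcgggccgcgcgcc
Slc7a11, the cystine transporter subunit, chr3:50443614-50443719, minus strand: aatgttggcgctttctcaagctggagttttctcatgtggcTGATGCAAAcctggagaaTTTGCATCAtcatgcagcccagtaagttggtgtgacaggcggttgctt
Tars, threonine tRNA ligase, chr15:11399659-11399714, minus strand: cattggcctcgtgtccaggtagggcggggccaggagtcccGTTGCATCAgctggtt

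The cyclic AMP response element, TGACGTCA on both strands, lay in the windows of Btg2 and Plk2, 2 of the 22 immediate early genes called lower with a window (9.09%), against 3.55% of all windows. The AP-1 element TGANTCA lay in none of these 22 (4.65% of all), and the CArG box of serum response factor in 1, Zfp36 (4.55%, against 1.33% of all). Only matches to these patterns inside the window were counted. A variant form or an element farther from the start was not seen, so a window without a match does not show that a gene lacks the element. The windows of Btg2 and Plk2 are shown with the element in capitals.
Btg2, chr1:134079274-134079361, minus strand: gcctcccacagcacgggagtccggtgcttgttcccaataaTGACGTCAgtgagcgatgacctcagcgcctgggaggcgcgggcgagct
Plk2, chr13:110394942-110395029, plus strand: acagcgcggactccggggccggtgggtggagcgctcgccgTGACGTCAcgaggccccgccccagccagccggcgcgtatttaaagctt

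Most AP-1 and other immediate early transcription factor genes were lower in recipients. Of 22 tested, 13 were lower and 1, Nfil3, was higher, with a list median of −0.50 on the log2 scale against a median of 0 for all genes. Both counts were the same without vehicle replicate 2 and without vehicle supernatant replicate 1. Rescaled to one total, 8 were lower. Fos, a subunit of AP-1 (protein-coding, GRCm38 chromosome 12 from 85473890 to 85477273 on the plus strand), had 31.5, 32.1 and 33.1 scaled FPKM in vehicle cells and 6.96, 4.05 and 5.98 in recipients. All 3 recipient libraries lay far below all vehicle libraries, and the log2 fold change was −2.34 ± 0.13 (SE, limma adjusted p = 4.97e-06). Egr1, a zinc finger transcription factor, had 191, 218 and 179 scaled FPKM in vehicle cells and 52.6, 45.3 and 46.3 in recipients, at −2.00 ± 0.10 (adjusted p = 2.47e-06). Klf2, a Krüppel-like factor, had 11.7, 12.4 and 11.3 and then 3.63, 2.96 and 3.22, at −1.58 ± 0.10 (adjusted p = 1.06e-05). The values within each group were close together in these 3 genes.

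Further members moved by less. Nr4a1, an orphan nuclear receptor, had 147, 150 and 166 scaled FPKM in vehicle cells and 64.4, 60.2 and 63.3 in recipients, at −1.28 ± 0.18 (limma adjusted p = 0.00107). Fosb, another AP-1 subunit, had 17.9, 14.3 and 15.1 and then 6.92, 5.63 and 6.13, at −1.21 ± 0.09. Junb had 120, 126 and 113 and then 75.7, 60.2 and 60, at −0.87 ± 0.09. The AP-1 partners Jun and Jund were lower by less, at −0.45 ± 0.07 and −0.77 ± 0.08, and the growth regulator Myc at −0.82 ± 0.12. Not all members followed: Fosl1 (0.12), Fosl2 (−0.09), Srf (0.12), Klf4 (−0.18), Egr2 (−0.52), Nr4a2 (−0.43), Nr4a3 (−0.26) and Csrnp1 (−0.88) did not pass. Nfil3, a basic leucine zipper repressor, had 17.5, 18.5 and 15.8 scaled FPKM in vehicle cells and 22.5, 26.1 and 26.7 in recipients, at 0.51 ± 0.10 (adjusted p = 0.00681).

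Other immediate early genes gave the same picture: 16 of 23 were lower and 2 higher, with a median of −0.56. The lower count was 15 without vehicle replicate 2 or without vehicle supernatant replicate 1, and 9 rescaled to one total. Arc, a cytoskeletal regulator known from neurons, had 9.52, 8.94 and 8.11 scaled FPKM in vehicle cells and 1.89, 1.58 and 1.55 in recipients, at −1.88 ± 0.12 (limma adjusted p = 1.48e-05). Btg2, an antiproliferative gene, had 32.1, 32.6 and 29.2 and then 13.6, 10.3 and 9.66, at −1.42 ± 0.11. Gadd45g, a stress gene, had 7.24, 5.46 and 6.89 and then 2.20, 2.68 and 2.10, at −1.18 ± 0.13. In each of these the groups were separate, as the rule for naming the largest changes required. Sgk1, a serum- and glucocorticoid-regulated kinase, had 193, 203 and 191 and then 89.6, 93.2 and 85.4, at −1.12 ± 0.08. Rhob, a small GTPase, had 132, 127 and 122 and then 62.7, 56.1 and 56.3, at −1.11 ± 0.09, and Ier2 58.2, 63.9 and 58.7 and then 34.3, 27.1 and 28.1, at −1.0 ± 0.09. The higher members were Ier5l at 0.51 ± 0.10 and Zfp36l2, an RNA-binding protein gene, at 0.59 ± 0.09, while Zfp36, its relative that promotes mRNA decay, was lower at −0.72 ± 0.08.

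**Figure D2:**
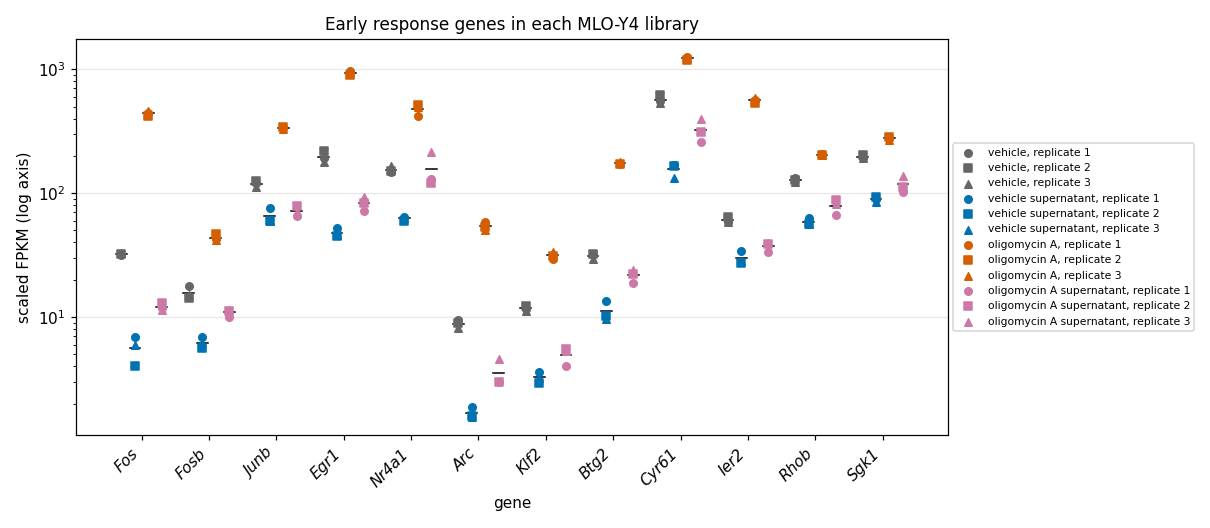
Scaled FPKM (log axis) of 12 early response genes in each library of the 4 MLO-Y4 groups; each point is a library, shapes mark the replicate and short bars the group mean. For every gene shown the vehicle supernatant libraries (blue) lie below the vehicle libraries (grey), as for Fos at 4.05 to 6.96 against 31.5 to 33.1.

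Of the MAP kinase feedback genes, which damp growth factor signalling, 7 of 12 were lower and 0 higher by limma (2 higher at an unadjusted p under 0.05), with a median of −0.31. Rescaled to one total, 1 was lower. Dusp5, a phosphatase for ERK, had 31.1, 30.0 and 28.9 scaled FPKM in vehicle cells and 18.3, 14 and 16.1 in recipients, at −0.86 ± 0.10 (limma adjusted p = 0.000401). Errfi1, an inhibitor of the EGF receptor, had 690, 693 and 664 and then 488, 523 and 493, at −0.44 ± 0.06. The other 5 lower members, Dusp1, Spry2, Dusp6, Spred3 and Spred2, lay between −0.63 and −0.27. Cyr61, a secreted matrix protein and YAP target, had 556, 621 and 530 scaled FPKM in vehicle cells and 168, 167 and 133 in recipients, at −1.86 ± 0.14 (adjusted p = 3.26e-05). Its relative Ctgf, at 73.4, 75.1 and 77.2 and then 46.4, 67.3 and 56.0, was not called (−0.42 ± 0.17, adjusted p = 0.108), and over the YAP list 4 of 14 were higher and 3 lower.

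Growth factor and cytokine genes went the other way in part. Of 11 EGF receptor ligand and early growth factor genes 4 were higher and 1, Hbegf, was lower, with 2 higher when any of the 3 vehicle libraries or recipient replicate 3 was left out. Il11, a cytokine, had 4.88, 4.91 and 6.56 scaled FPKM in vehicle cells and 9.17, 8.48 and 9.08 in recipients, at 0.63 ± 0.11 (limma adjusted p = 0.00383). In the NF-kB and cytokine list 6 of 21 members were higher and 1, Nfkbiz, lower. Il6, an inflammatory cytokine, had 25.3, 28.5 and 23.8 and then 47.5, 38.7 and 38.3, at 0.66 ± 0.10 (adjusted p = 0.00146). Without recipient replicate 1, vehicle replicate 1 or vehicle replicate 3, 3 of the NF-kB genes were higher.

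Among integrated stress response genes, more were higher than lower in recipients. Of 27 tested 11 were higher and 1, the amino acid transporter Slc38a2, lower, with a median of 0.36, against 9.1% of all genes called higher. Trib3, a pseudokinase induced by ATF4, had 12.3, 10.6 and 10.2 scaled FPKM in vehicle cells and 36.7, 21 and 25.5 in recipients, at 1.23 ± 0.22 (limma adjusted p = 0.00403). Slc7a11 had 3.79, 3.17 and 3.30 and then 10.7, 5.45 and 7.41, at 0.96 ± 0.26 (adjusted p = 0.0274). Phgdh, the first enzyme of serine synthesis, had 29.8, 28.4 and 27.7 and then 60.5, 37.5 and 40.1, at 0.64 ± 0.18 (adjusted p = 0.0321). Replicate 1 was the highest recipient in each of these. The list's median difference from the vehicle mean was 0.62, 0.20 and 0.31 in the 3 recipient libraries, and 5 members were higher without that replicate, 5 without vehicle replicate 1 or 2 and 3 without vehicle replicate 3. Trib3 kept its call without recipient replicate 1 (1.01, adjusted p = 0.0137), while Slc7a11 did not (0.74, adjusted p = 0.0964), nor did it when any vehicle library or recipient replicate 3 was left out (adjusted p = 0.0539 to 0.0794). Atf4, the regulator, had 142, 147 and 178 and then 134, 138 and 122 scaled FPKM, at −0.24 ± 0.19 (adjusted p = 0.42), and Ddit3 was at −0.19 ± 0.12 (adjusted p = 0.291), so neither was called. The C/EBP factor genes were: Cebpg had 9.85, 8.39 and 9.01 scaled FPKM in vehicle cells and 15.2, 12.6 and 15.3 in recipients, at 0.61 ± 0.09 (adjusted p = 0.00132), and Cebpb was at 0.28 ± 0.08 (adjusted p = 0.029).

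Cytosolic aminoacyl-tRNA synthetase genes, which charge tRNAs with amino acids, had 9 of 20 higher and 0 lower, with a median of 0.29. Gars, shown above with its element, had 65.8, 62.4 and 63.2 scaled FPKM in vehicle cells and 113, 76.2 and 83.8 in recipients, at 0.49 ± 0.13 (limma adjusted p = 0.0255). Tars had 36.7, 35.6 and 34.3 and then 58.1, 43.5 and 46.4, at 0.45 ± 0.11. Asns, from the stress list, had 47.2, 43.6 and 44.9 and then 79.0, 58.0 and 56.4, at 0.49 ± 0.13. The count was 3 without recipient replicate 1, vehicle replicate 2 or vehicle replicate 3 and 5 without vehicle replicate 1, and the Tars call was lost without vehicle replicate 3 (adjusted p = 0.0527). Of 20 endoplasmic reticulum genes 3 were higher: Canx at 0.19, Dnajb11 at 0.21 and Herpud1, a degradation factor, which had 33.9, 26.9 and 30.8 and then 103, 43.7 and 60.7 (1.07 ± 0.31, adjusted p = 0.0358). The Herpud1 call was lost without any single library but recipient replicate 2 (0.74 to 1.14, adjusted p = 0.0653 to 0.114). The list had 1 higher member without vehicle replicate 1 or 3 or recipient replicate 1 or 3.

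Ribosome biogenesis genes, which make and process rRNA, had the largest share of higher members of the lists with at least 5 tested: 18 of 24 higher and 0 lower, with a median of 0.27. Dkc1, the pseudouridine synthase, had 12.8, 11.7 and 11.9 scaled FPKM in vehicle cells and 19.5, 17.6 and 17.8 in recipients, at 0.55 ± 0.07 (limma adjusted p = 0.000462). Polr1b, a subunit of RNA polymerase I, had 5.46, 4.75 and 5.45 and then 9.91, 7.53 and 8.45, at 0.63 ± 0.14 (adjusted p = 0.0105). The changes were small and the groups separate in both. The count was 11 without vehicle replicate 2 and 8 rescaled to one total. The E-box CACGTG lay in the windows of 4 of 14 of these genes (28.6%), against 10.9% of all windows and 15.0% of those of called higher genes. These members too were chosen by their calls, so the share is a description of few genes. Of 36 cytosolic ribosomal protein genes 0 were higher and 1, Rps2, was lower at −0.16 ± 0.05, a call lost without any single library but recipient replicate 2 (adjusted p = 0.0564 to 0.139). Mitochondrial chaperone and protease genes had 7 of 17 higher and 0 lower, among them Hspa9 at 0.52 ± 0.09, and 4 higher without vehicle replicate 1 or 2. Of 35 nuclear genes of oxidative phosphorylation 0 were called by limma (median −0.02), with 3 lower and 0 higher at an unadjusted p under 0.05.

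**Figure D3:**
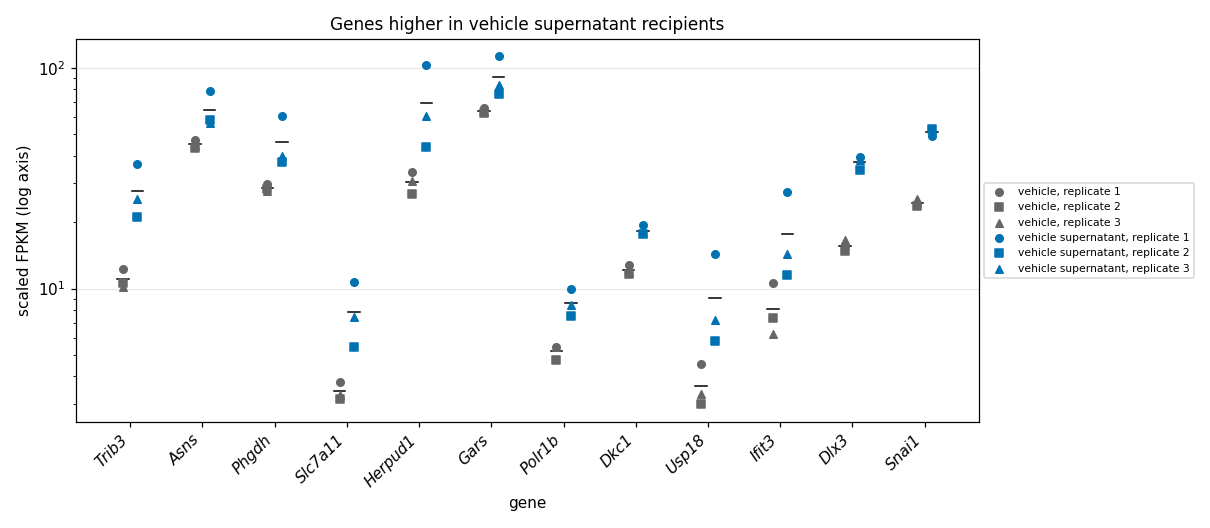
Scaled FPKM (log axis) of 12 genes called higher in recipients, in the vehicle (grey) and vehicle supernatant (blue) libraries; each point is a library, shapes mark the replicate and short bars the group mean. Replicate 1 of the recipients is the top point for Trib3 (36.7), Herpud1 (103) and Ifit3 (27.4), while Dlx3 and Snai1 have close replicates.

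Of 19 glycolysis and glucose uptake genes 9 were lower and 1, the glucose transporter Slc2a1 at 0.22, higher, with a median of −0.23. Pfkl, a phosphofructokinase, had 36.7, 39.7 and 36.7 scaled FPKM in vehicle cells and 23.3, 25.5 and 24.0 in recipients, at −0.62 ± 0.06 (limma adjusted p = 0.000154). Pfkm, another isoform, had 30.9, 31.8 and 30.2 and then 18.9, 21.3 and 22.2, at −0.55 ± 0.06. The lower count was 5 without recipient replicate 1 or vehicle replicate 3 and 1 rescaled to one total. Of 17 hypoxia response genes 7 were lower and 1 higher (median −0.23), among them Bnip3, a mitophagy receptor, with 77.9, 75.5 and 71.6 and then 48.7, 53.5 and 47.8, at −0.58 ± 0.10. Rescaled to one total, 0 hypoxia genes were lower by limma, and 3 at an unadjusted p under 0.05. Of 22 cholesterol synthesis genes 5 were lower and 0 higher, among them Dhcr7, a reductase of the last steps, at −0.50 ± 0.08 and Insig1, which helps retain the SREBP regulators in the endoplasmic reticulum, at −0.62 ± 0.14. The Insig1 call was lost without vehicle replicate 2 or recipient replicate 1 (adjusted p = 0.0505 and 0.0546). Of the cholesterol genes 2 were lower without recipient replicate 1 or vehicle replicate 2, and without vehicle replicate 1, vehicle replicate 3 or recipient replicate 3, 3. Of 14 fatty acid synthesis genes 5 were lower and 1 higher, with 2 lower without vehicle replicate 1 or 2 and 3 without recipient replicate 1 or 2. The list median was −0.05, and the 1 higher call was lost without any single library but recipient replicate 1. Of 14 p53 targets 5 were lower and 0 higher, with 3 lower without vehicle replicate 2 or recipient replicate 3 and 2 without vehicle replicate 3. Among the 5 were Btg2 (−1.42) and Plk2 (−0.58), which also count among the lower immediate early genes above. Mdm2, Ccng1 and Trp53inp1 were at −0.20, −0.22 and −0.24. Txnip, a brake on glucose uptake, had 28, 38.7 and 34.4 and then 14.9, 22.3 and 24.5, at −0.70 ± 0.18 (adjusted p = 0.0202), a call lost without vehicle replicate 2 or 3 or recipient replicate 1 (adjusted p = 0.0755, 0.061 and 0.054).

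Interferon-stimulated genes had 3 of 22 higher and 1, Rsad2, lower. The list median over members was 0.44, and by recipient library it was 0.79 in replicate 1 and 0.21 in each of the other 2. Without recipient replicate 1 or 3 or vehicle replicate 2 or 3, 0 were higher by limma (5, 13, 6 and 5 at an unadjusted p under 0.05, in that order), and without recipient replicate 2, 6 were. Ifit3, an antiviral gene, had 10.6, 7.35 and 6.21 scaled FPKM in vehicle cells and 27.4, 11.5 and 14.3 in recipients, at 0.99 ± 0.30 (limma adjusted p = 0.0436).

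Of 16 homeobox and mesenchymal factor genes 6 were higher and 1, Msx1, lower, and without recipient replicate 1 7 were higher. Dlx3, a homeobox factor, had 15.6, 14.8 and 16.6 scaled FPKM in vehicle cells and 39.5, 34.6 and 38.4 in recipients, at 1.21 ± 0.09 (limma adjusted p = 3.32e-05). Snai1, a repressor known for its part in epithelial-mesenchymal transition, had 24.0, 23.8 and 25.5 and then 49.3, 53 and 52.1, at 1.05 ± 0.07. Hmga2, a chromatin protein, had 41.6, 41.9 and 45.3 and then 69.3, 68.5 and 71.0, at 0.68 ± 0.05. Of the 7 osteocyte markers tested 2 were higher, Phex and Pdpn, the membrane protein podoplanin, which had 204, 196 and 192 and then 270, 267 and 257 (0.42 ± 0.05, adjusted p = 0.000534). Gja1, connexin 43, was not called (0.10 ± 0.19, adjusted p = 0.763). Tnfsf11, RANKL, the main signal for osteoclast formation, had 22.2, 27.5 and 24.3 and then 29.4, 34.0 and 30.8, at 0.34 ± 0.09 (adjusted p = 0.0253), a call lost without vehicle replicate 1 or 3 or recipient replicate 2 or 3 (adjusted p = 0.0557 to 0.0883). Of 7 purinergic genes 2 were higher, Nt5e at 0.35 and the adenosine receptor Adora2b at 0.77 ± 0.08, while the nucleotide receptor P2ry2 (1.27, 1.89 and 1.23 and then 2.26, 1.47 and 0.662) was not called (−0.04 ± 0.24, adjusted p = 0.925).

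**Figure D4:**
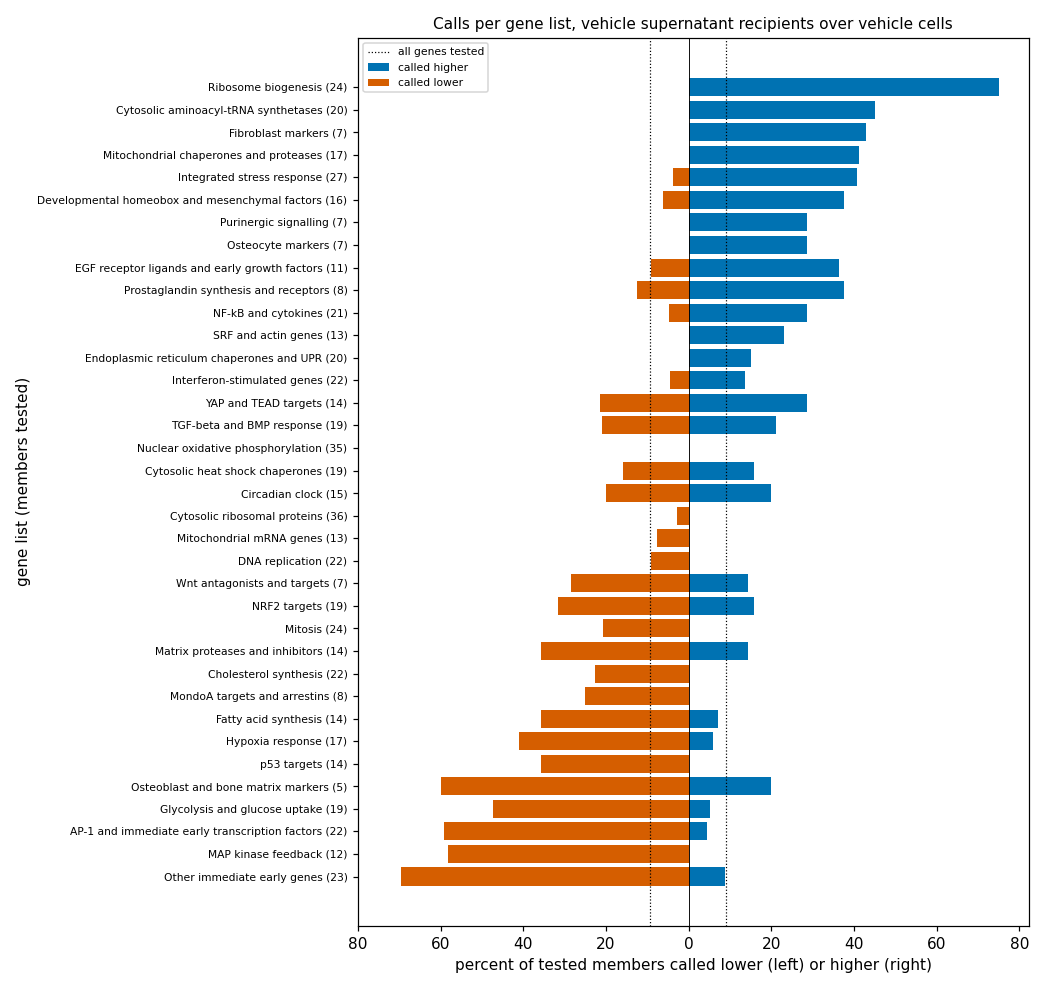
Percent of tested members called lower (orange, left) or higher (blue, right) for lists with at least 5 members tested, with the number tested in brackets and dotted lines at the shares over all genes (9.1% higher, 9.3% lower). Ribosome biogenesis is at the top with 18 of 24 higher and the other immediate early genes at the bottom with 16 of 23 lower.

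Other lists were mixed. Of 19 TGF-beta and BMP response genes 4 were higher and 4 lower. Id1, a BMP target, had 10.6, 10.6 and 12.3 scaled FPKM in vehicle cells and 5.7, 5.34 and 5.44 in recipients, at −0.90 ± 0.10 (limma adjusted p = 0.0003), while Klf10, a TGF-beta-induced factor, had 9.2, 8.72 and 10.5 and then 21, 19.1 and 22, at 1.05 ± 0.18. The groups were separate in both, which the naming rule required of Klf10. Vcl, the adhesion protein vinculin, had 30.8, 28.1 and 29.2 and then 45.9, 44.7 and 45.3, at 0.61 ± 0.06, with 3 of 13 SRF and actin genes higher and 0 lower, and 1 higher without vehicle replicate 2. Of 5 bone matrix markers 3 were lower, Sparc, Col1a1 and Col1a2 (−0.25 to −0.16), and 1 higher, Spp1, osteopontin, at 0.29 ± 0.06. Of 14 matrix protease genes 5 were lower, led by Adamts1 at −0.70 ± 0.07, and 2 higher, among them Mmp2 at 0.26 ± 0.04, with 1 higher without vehicle replicate 1 or 3 or recipient replicate 1 or 2. Of 24 mitosis genes 5 were lower and 0 higher, and 1 was lower on the deposited FPKM and 2 without vehicle replicate 1 or 3 or recipient replicate 1.

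Some large single changes had uneven replicates. Usf3, a transcription factor gene, had 0.406, 0.914 and 0.300 scaled FPKM in vehicle cells and 6.78, 6.96 and 4.29 in recipients, at 2.18 ± 0.34 (limma adjusted p = 0.00219). Nptxr, a neuronal pentraxin receptor, had 30.5, 29.3 and 29.8 and then 5.93, 6.58 and 24.8, so that 1 recipient library lay near the vehicle level (−1.48 ± 0.38, adjusted p = 0.0215). Without recipient replicate 3 it was at −2.09, and the call was lost without any other single library (adjusted p = 0.0581 to 0.0771). Osgin1, an NRF2 target, had 6.63, 14.5 and 12 and then 3.17, 1.77 and 1.27, at −1.96 ± 0.29 (adjusted p = 0.00162).

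**Figure D5:**
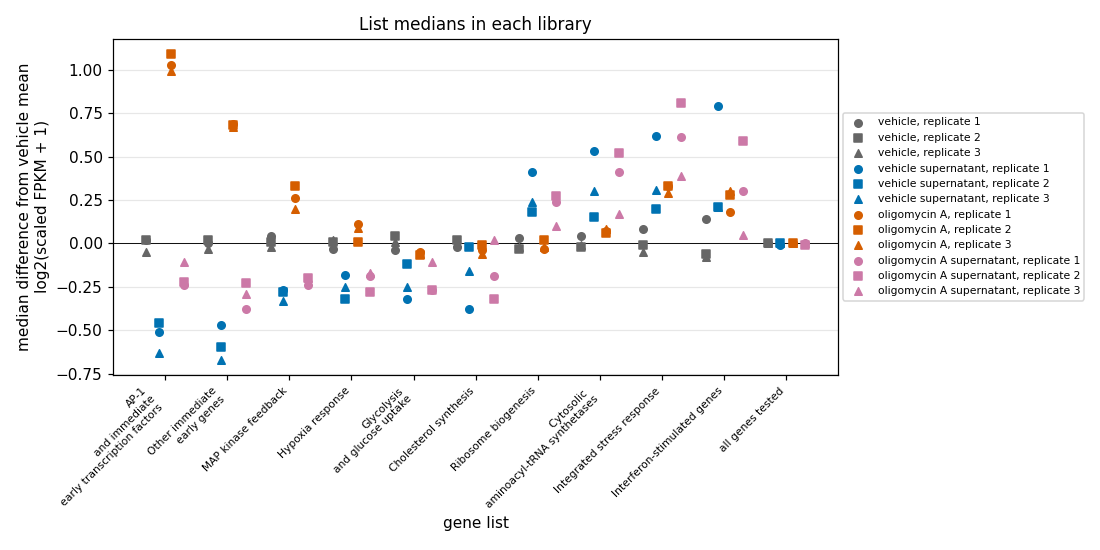
Median difference of each list's members from the vehicle mean, on the log2(scaled FPKM + 1) scale, in every library of the 4 groups; shapes mark the replicate. In the recipients of vehicle supernatant the immediate early lists lie between −0.67 and −0.46 in all 3 libraries, while replicate 1 is highest for the stress response (0.62) and interferon (0.79) lists.

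The same step in the drug arm, recipients of oligomycin A supernatant against oligomycin A cells, shares no library with this comparison, but both were taken from the joint fit and so share its estimate of each gene's spread. It gave 2648 calls (22.2%), 1221 higher (10.2%) and 1427 lower (12%), and its groups were separate for 39.3% of genes. Of the 1087 genes higher in the vehicle arm 594 were also higher there (54.6% of this list, 48.6% of that), and of the 1110 lower genes 652 were also lower (58.7% and 45.7%), with 9 and 3 called in the opposite direction. Across the 11940 genes, which are not independent replicates, the changes of the arms correlated at 0.58 (Pearson's r) and 0.57 (Spearman's rho). The immediate early lists were lower there too, 15 of 22 and 20 of 23, and of the ribosome biogenesis genes 13 were higher and 1 lower. Other lists did not repeat their split. Of the stress response genes 7 were higher and 5 lower there (11 and 1 in the vehicle arm). For the NF-kB list these counts were 2 and 4 (6 and 1), and for the interferon list 0 and 2 (3 and 1). The difference of the arms was called for 3, 2 and 0 members of these lists. The difference of the arms was called for 101 genes (0.846% of those tested), 82 of them more negative in the drug arm (0.687%) and 19 more positive (0.159%). Fos was at −5.09 in the drug arm and −2.34 in the vehicle arm, a difference of −2.74 (adjusted p = 2.9e-05). In the drug arm it went from 446, 421 and 457 to 11.8, 12.9 and 11.5 scaled FPKM. For Fos both recipient groups lay below the vehicle cells, and the treated cells that start the arms differed widely. Grem1, a BMP antagonist chosen after its values were seen, was at 0.69 in both arms.

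MLO-Y4 cells without ADP, from another table that was normalized separately, are given as levels only, with no test. Their stimulation time is 2 h in 10% serum, as long as that of the recipients and longer than the 1 h of the vehicle cells. Their mean deposited FPKM (n = 3) was 12.9 for Fos, 137 for Egr1 and 268 for Cyr61, each between the vehicle and the recipient libraries above. For Fosb, Klf2 and Rhob it was 1.81, 2.85 and 38.5, each below the recipient libraries. Some genes of other lists, picked for their large gaps, also lay outside both groups. Ifit3 (0.716) and Dnajb1 (20.4) lay below them, and Il11 (25.8) and Ccnd1 (83.9) above. The cells without ADP are therefore not a matched baseline for either group.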

How the data were processed

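Poly(A)-selected RNA was sequenced on a NovaSeq instrument, per the labels' protocols. The authors deposited FPKM values in a table of 55335 genes. HTSeq and mm10 are named in the submitters' processing notes without a role, and the aligner and FPKM tool are not given in the sources used here. Counts were not recovered, so no count test was run. FPKM were scaled by median of ratios, because vehicle replicate 2 was rich in rRNA-like and 7S genes, and tested as log2(scaled FPKM + 1), which understates changes of low genes, with limma 3.58.1 in R 4.3.3 (trended variance prior, 4 group coefficients, 12 libraries, 8 residual degrees of freedom). Adjusted p below 0.05 over 11940 genes was the threshold. Positions are from GENCODE M21, in which 55154 gene IDs were found.

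Named genes were the 14 largest called changes in each direction with separate groups, at least 5 FPKM on average in the higher one, a call on the deposited FPKM and no predicted or small RNA name, up to 5 called members of each of 41 lists by p, and a fixed set; further list members and Ctgf were chosen after their values were seen. A few named genes are left out of the text. The members, lists and design were chosen with earlier results of these data known. In a simulation of this comparison over 11940 genes, of which 200 carried a log2 change of 1, the fit recovered 92.5% and made 12 false calls. Its noise was normal and independent between libraries, and the change of 1 exceeds the median called change of 0.31. Neither figure therefore carries over to the calls given here. Alternatives were other scalings, pseudocounts, filters and fits, and leaving out each library.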

Additional observations from a re-analysis of the deposited data

Results flagged for a closer look

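For 17 named genes the change from treated cells to recipients differed between the arms by a test of the difference itself (limma, Benjamini-Hochberg adjusted over all genes). The values are the change in the oligomycin A arm minus the change in the vehicle arm on the log2 scale. Among immediate early and feedback genes the difference was −2.74 for Fos, −2.06 for Dusp1, −1.74 for Arc, −1.54 for Btg2, −1.48 for Egr1, −1.35 for Junb, −0.87 for Klf2 and −0.70 for Fosb. For Txnip it was −3.12 and for Ddit3 −1.90. It was −0.72 for Bcl3, an NF-kB cofactor, −0.59 for Snai1, −0.59 for Amotl2, −0.53 for Plat, −0.43 for Ajuba, −0.33 for Pla2g4a and −0.30 for Slc38a2. Amotl2, Bcl3 and Pla2g4a were higher in the recipients of the vehicle arm and lower in those of the drug arm. The oligomycin A cells that start the drug arm had 124, 142 and 131 scaled FPKM of Txnip, against 28, 38.7 and 34.4 in vehicle cells. Each difference also holds the starting levels of the arms. Mean scaled FPKM of Dusp1 was 74.0 in oligomycin A cells and 17.4 in vehicle cells, with 10.6 and 10.8 in the respective recipients. Junb had 338 and 120, with 71.7 and 65.3 in recipients. For Snai1 the starting means were closer, at 19.9 and 24.4, with 27.8 and 51.5 in recipients. The share of the starting level in each difference was not tested.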

How the results depend on the processing

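No gene called in the vehicle arm was called in the opposite direction under any of the 18 alternatives. Of the 153 called named genes 62 kept their call under every alternative that tested them. The filter at a mean of 5 FPKM tested 143 of the 157 named genes. On the deposited FPKM 610 genes were lower. Rescaled to one total, 484 were higher and 102 lower, the oligomycin A arm gave 509 in place of 2648, and Rps2 and Col1a2 turned to 0.0045 and 0.0013 (adjusted p = 0.986 and 0.997); in that scaling the library rich in rRNA-like genes is lowered throughout. The calls for the difference of the arms, 101, were 53 on the deposited FPKM, 31 rescaled to one total and 231 with array weights; the cause was not tested. Leaving out 1 library at a time gave 643 to 911 higher and 686 to 893 lower genes and 54 to 81 differences, the lowest without vehicle replicate 2 for both gene counts and without vehicle replicate 3 for the differences. With a replicate block 936 were higher, 945 lower and 62 differed. Same-numbered vehicle and vehicle supernatant libraries did not deviate together (correlations 0.0224, −0.00421 and 0.0524). With 3 libraries per group this cannot decide whether the numbers pair them by culture or day. Depth limits low genes: at the 1 FPKM limit a short transcript rests on few fragments.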

Other observations

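The genes of this paragraph up to Ddx5 belong to no list and, apart from Ubb, were chosen after their values were seen, so they are given as single values and stand for no group. Among genes lower in recipients, Ubb, a polyubiquitin gene, had 307, 357 and 326 scaled FPKM in vehicle cells and 150, 152 and 148 in recipients (−1.13 ± 0.07 on the log2 scale, limma adjusted p = 1.21e-05). Hexim1, an inhibitor of P-TEFb, was at −1.0 ± 0.11, Brd2, a bromodomain protein gene, at −0.75 ± 0.04, Pcf11, a transcript termination factor, at −0.88 ± 0.07 and Ddx5, an RNA helicase, at −0.43 ± 0.04. From the heat shock list, Dnajb1, a cochaperone, was at −1.12 ± 0.10 with 118, 112 and 114 and then 53.5, 55.2 and 48.1 scaled FPKM.

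Among genes higher in recipients, also chosen after their values were seen, Grem1 had 357, 352 and 368 scaled FPKM in vehicle cells and 593, 570 and 574 in recipients (0.69 ± 0.03, adjusted p = 2.47e-06), Ahr, the aryl hydrocarbon receptor, was at 0.73 ± 0.04, Socs3, a cytokine feedback inhibitor, at 0.85 ± 0.09, Tnc, tenascin C, at 0.76 ± 0.10, and Fst, follistatin, at 0.66 ± 0.08. Clock genes were mixed: of 15 tested 3 were higher and 3 lower (1 higher when any library but recipient replicate 2 was left out), with Cry2 at −0.71 ± 0.06 and Per1 at −0.65 ± 0.08.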
